A study of Homo sapiens with 16 samples.

Results

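The comparison is between 4 RNA libraries of H2A cells treated with JQ1 (1 µM, 3 h) and 4 of the same cells with DMSO. The set described here is every gene that passed edgeR's filter on low counts over the 16 libraries of the series, 17306 of the 57500 genes in the files. The filter kept a gene that reached 0.442 CPM (counts scaled to the size of the library) in at least 4 libraries. The gene nearest above that limit stood at 0.446 CPM and the nearest below at 0.438 CPM in its fourth-highest library. Of the 40194 genes left out, 20405 had no count in any library. The cells are HEK293T, a human embryonic kidney line that expresses large T antigen of SV40, with a lentiviral vector for histone H2A. The vector's promoter is not stated in the labels, and the cells also hold their own H2A genes. The other groups of the series were the same H2A cells given 2.5 µM pinometostat, a DOT1L inhibitor, for 24 h, and cells with the H2A(E92K) vector given DMSO, the H2A mutant that replaces an acidic patch glutamate by lysine. All 16 libraries thus come from HEK293T with an H2A vector. The DMSO labels state no time, so handling time and compound cannot be told apart. Since no label says that the numbered samples were separate cultures, the p-values reflect spread between libraries alone, which may be technical.

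JQ1 is a small molecule that occupies the acetyl-lysine pocket of the BET bromodomain proteins, BRD2 and BRD3 among them, and so displaces them from chromatin. BET proteins help to recruit P-TEFb, the CDK9 and cyclin T kinase that releases paused RNA polymerase II into elongation, and HEXIM1 and HEXIM2 hold P-TEFb inactive in the 7SK small nuclear ribonucleoprotein. BET inhibitors are known for lowering transcripts of lineage transcription factors and signalling genes and for raising HEXIM1 and many histone transcripts.

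Total counts ran from 24003378 to 27599686 in the DMSO libraries and from 17779692 to 21709716 in the JQ1 libraries. JQ1 replicate 1 stood apart: the mitochondrial genome took 16.5% of its counts, whereas JQ1 replicates 2 to 4 gave 3.04% to 3.69% and the DMSO libraries 3.66% to 4.02%. Its scaling factor was 0.777, and those of the other 3 were 0.961 to 0.989. Many results below are therefore given with and without that library, though not all. Of 13 genes listed as marks of embryonic kidney and HEK293 cells, 12 were tested and PAX8 had 5 counts over the 8 libraries. The differentiated nephron gene UMOD and the blood gene HBB had 0 counts in all 8.

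The promoters of 6 genes described below are shown: the common BET-inhibition marker HEXIM1, 4 histone genes that rose together, and LHX8, among the largest falls. Each sequence is the 250 bases before RefSeq's start of the gene (build GRCh38.p14), written 5′ to 3′ on the gene's strand. Capitals mark 4 motifs, searched on both strands. The TATA box was searched as TATAAA. The CCAAT box was searched as CCAAT. The octamer was searched as ATTTGCAT. The cyclic AMP response element (CRE) was searched as TGACGTCA. The AP-1 site, TGACTCA, and the E-box, with the letters CACGTG, were searched as well, with no match in these 6 windows. The LHX8 window holds none of the 6 motifs.
HEXIM1 (chr17:45148225-45148474, plus strand): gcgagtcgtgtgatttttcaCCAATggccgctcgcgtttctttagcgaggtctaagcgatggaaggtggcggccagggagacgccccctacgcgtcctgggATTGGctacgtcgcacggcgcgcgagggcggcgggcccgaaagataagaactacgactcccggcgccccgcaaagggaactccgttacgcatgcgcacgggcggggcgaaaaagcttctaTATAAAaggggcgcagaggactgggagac
HIST1H2AC (chr6:26123922-26124171, plus strand): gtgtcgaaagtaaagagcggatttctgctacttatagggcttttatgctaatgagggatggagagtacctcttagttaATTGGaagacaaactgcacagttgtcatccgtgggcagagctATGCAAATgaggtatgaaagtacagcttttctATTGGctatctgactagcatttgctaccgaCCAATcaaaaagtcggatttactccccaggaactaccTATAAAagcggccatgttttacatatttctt
HIST1H2BD (chr6:26157871-26158120, plus strand): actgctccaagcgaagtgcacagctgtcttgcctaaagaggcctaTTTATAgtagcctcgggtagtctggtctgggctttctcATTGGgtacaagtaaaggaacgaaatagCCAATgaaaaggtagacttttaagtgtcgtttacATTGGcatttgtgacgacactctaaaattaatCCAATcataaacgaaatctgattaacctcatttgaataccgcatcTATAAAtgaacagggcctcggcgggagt
HIST1H2BK (chr6:27146859-27147108, minus strand): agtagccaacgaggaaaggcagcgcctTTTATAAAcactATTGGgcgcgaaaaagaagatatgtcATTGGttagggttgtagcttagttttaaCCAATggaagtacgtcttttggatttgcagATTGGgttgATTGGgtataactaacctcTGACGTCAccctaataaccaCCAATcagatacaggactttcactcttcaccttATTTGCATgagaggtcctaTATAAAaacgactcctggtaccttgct
HIST2H2BE (chr1:149886683-149886932, minus strand): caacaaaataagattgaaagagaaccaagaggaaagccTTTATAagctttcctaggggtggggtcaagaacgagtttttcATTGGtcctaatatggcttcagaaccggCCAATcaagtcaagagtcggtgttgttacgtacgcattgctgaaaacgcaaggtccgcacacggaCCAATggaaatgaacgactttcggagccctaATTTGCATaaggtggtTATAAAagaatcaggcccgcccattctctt
LHX8 (chr1:75128184-75128433, plus strand): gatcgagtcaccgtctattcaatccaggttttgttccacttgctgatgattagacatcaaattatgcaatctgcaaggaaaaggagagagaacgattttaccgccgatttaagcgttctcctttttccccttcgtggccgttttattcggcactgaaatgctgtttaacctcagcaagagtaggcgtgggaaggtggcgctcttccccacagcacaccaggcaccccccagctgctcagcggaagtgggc

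A promoter was found for 34 of the 35 replication-dependent histone genes tested. TATAAA stood in 22 of these 34 windows (64.7%), against 11.1% of the 27305 RefSeq promoters of the same length, 1 per gene. CCAAT stood in 28 (82.4%), against 33.0%, and the octamer in 13 (38.2%), against 1.66%. The CRE letters stood in 5 (14.7%), against 1.765%. A TATAAA or its reverse overlaps a neighbouring one where the letters TTTATAAA occur, as in the HIST1H2BK window. The 27 matched histone genes called higher had much the same shares: 62.96% for TATAAA, 85.2% for CCAAT, 37.0% for the octamer and 14.8% for the CRE. These matches describe letters, not bound sites, and a link between letters and direction of change was not tested.

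After 3 h with JQ1, 3044 of 17306 genes (17.6%) passed the test against DMSO (adjusted p under 0.05, by the quasi-likelihood test of edgeR, adjusted by Benjamini-Hochberg across the 17306 genes). Of these, 1239 genes (7.16%) rose and 1805 (10.4%) fell. The falls were also larger: the median log2 fold change was -0.81 among genes that fell and 0.60 among those that rose. Changes of at least 2 on the log2 scale were found for 54 rises and 77 falls. The genes that rose were the more abundant, with a median level of 13.998 TPM (transcripts scaled for gene length and library size) with DMSO against 8.09 for those that fell and 9.92 for all tested genes. Summed over genes, those that rose went from 62401 to 93172 CPM and those that fell from 35081 to 22272 CPM. All 4 JQ1 libraries lay above or all lay below the 4 DMSO libraries for 3549 genes (20.5%). Among called genes, 394 had groups that overlapped.

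The split between rises and falls depends on how the libraries are scaled. With library size alone in place of TMM, 433 genes rose and 2605 fell, so that 14.3% of the called genes were higher rather than 40.7%. The median log2 fold change of all tested genes moved from 0.04 to -0.14. With library size over genes outside the mitochondrial genome, an alternative chosen after seeing the data, 535 rose and 2546 fell. All directions below are relative to the TMM scale, and none of the 231 genes chosen by the naming rule changed sign under any of the scalings tried.

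JQ1 replicate 1 gave larger median changes than the other JQ1 libraries over the called genes, which were called with that library included. Its median log2 ratio to the DMSO mean was 0.76 over the genes that rose and -0.93 over those that fell. The other 3 libraries gave 0.47 to 0.54 for the genes that rose and -0.78 to -0.75 for those that fell. Replicate 1 also lay inside the DMSO range for 4.71% of the falls and 7.43% of the rises. In the other 3 these shares were 1.05% to 1.22% and 1.86% to 8.88%. Without replicate 1, 3207 genes were called, 1108 higher and 2099 lower, and 2493 of them were also called with it, in the same direction. In a fit of the 7 libraries alone, again without JQ1 replicate 1, 4205 genes were called, 1812 of them higher, against 1872 and 505 in the 8 libraries alone. Leaving out DMSO replicate 3 lowered the count of rises from 1239 to 734, and of falls from 1805 to 1482.

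**Figure D1:**
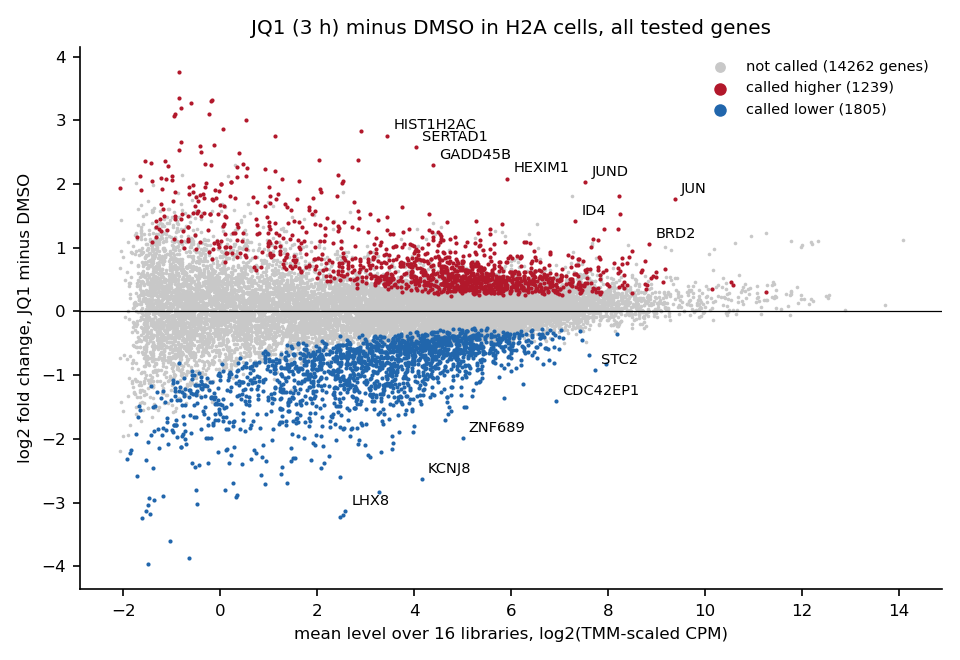
Each point is 1 of the 17306 tested genes. The x axis is the mean level over the 16 libraries in log2 TMM-scaled CPM, and the y axis is the log2 fold change of JQ1 minus DMSO. Red points are the 1239 genes called higher, blue points the 1805 called lower and grey points the rest. Of the called genes, 54 lie at 2 or above and 77 at -2 or below.

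HEXIM1 (ENSG00000186834), a single-exon gene at chr17:45148502-45152101 on GRCh38, stood at 39.5, 32.7, 29.8 and 29.8 CPM with DMSO and at 213, 121, 111 and 114 CPM with JQ1. Every JQ1 library was far above every DMSO library, with replicate 1 the highest. The log2 fold change was 2.08 ± 0.18 (SE, edgeR adjusted p = 4.30e-07), and 1.78 ± 0.11 without JQ1 replicate 1. Its paralog HEXIM2, which lies 8598 bases downstream on the same strand, moved the other way. HEXIM2 stood at 4.02, 3.27, 4.35 and 3.79 CPM with DMSO and at 2.68, 2.00, 2.64 and 1.54 CPM with JQ1, with no overlap. Its log2 fold change was -0.81 ± 0.19 (edgeR adjusted p = 0.00532), and -0.93 without replicate 1. By TPM, which allows levels of different genes to be set side by side, HEXIM1 went from 29.9 to 98.7 and HEXIM2 from 6.13 to 2.87.

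The kinase subunit CDK9 rose from 67.0 to 109 CPM (0.71 ± 0.09, edgeR adjusted p = 4.10e-05). The 7SK capping enzyme MEPCE rose by 0.43 ± 0.11, although JQ1 replicate 1, at 81.9 CPM, lay inside the DMSO range of 66.7 to 82.4. The cyclins did not pass the test in the fit of all libraries. CCNT1 stood at 46.4 to 55.96 CPM with DMSO and at 69.2, 76.5 and 80.8 in JQ1 replicates 2 to 4, but at 22.3 in replicate 1. Without that library CCNT1 was called higher (0.55 ± 0.14, edgeR adjusted p = 0.00653). LARP7, which stabilises 7SK, showed the opposite layout, with 186 CPM in JQ1 replicate 1 and 48.2 to 58.1 in the other 3, against 58.0 to 79.6 with DMSO.

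Among the BET genes themselves, BRD2 was at 415, 379, 372 and 344 CPM with DMSO and at 927, 746, 762 and 717 CPM with JQ1. Its log2 fold change was 1.06 ± 0.11 (edgeR adjusted p = 2.90e-06), with all JQ1 libraries above all DMSO libraries. BRD3 (0.29 ± 0.12) did not pass the test. Over the 28 genes of P-TEFb, 7SK, BET proteins and elongation factors, 4 rose (14.3%, against 7.16% of all tested genes) and 1 fell (3.57%, against 10.4%). The median log2 fold change of these 28 was 0.11, and 7 rose and 1 fell without JQ1 replicate 1. In the Mediator, TFIID, TFIIH and RNA polymerase II list, 11 of 85 tested genes rose (12.9%) and 7 fell (8.24%), the latter below the 10.4% of all tested genes. The Mediator subunit MED26 rose from 8.86 to 16.6 CPM (0.90 ± 0.15) and MED19 from 21.5 to 38.8 (0.85 ± 0.12). MED18 fell from 29.8 to 18.5 CPM (-0.68 ± 0.16) and MED30 from 15.1 to 10.1 (-0.58 ± 0.13). Without JQ1 replicate 1, 10 genes of this list rose and 10 fell, and GTF2B, MED29, TAF12, TAF6 and TAF6L were no longer called higher. With library size alone in place of TMM, 4 genes of this list rose and 13 fell. Its falls numbered 2 without DMSO replicate 4 and 4 without JQ1 replicate 2, and its rises 18 without JQ1 replicate 4 and 7 without DMSO replicate 2 or 3.

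Replication-dependent histone genes encode the core and linker histones, mostly from clusters of short genes without introns. Of 35 such genes tested, 27 rose and 0 fell, against 7.16% rising among all tested genes. Their summed level was 158.4, 162.8, 183.1 and 174.5 CPM with DMSO and 472.8, 362.7, 370.9 and 318.8 CPM with JQ1. The counts were 7 of 9 H2A genes, 11 of 13 H2B genes, 3 of 4 H3 genes, 5 of 7 H4 genes and 1 of 2 linker H1 genes. The filter left out the rest of the 17 H2A, 19 H2B, 14 H3, 15 H4 and 6 H1 genes listed. A rise with JQ1 can help a low gene to pass it, and the 4 H3 genes summed to 3.98 to 4.84 CPM with DMSO. With at least 50 counts in 4 libraries, 6 H2A, 6 H2B, 1 H3, 2 H4 and 1 H1 genes were called higher and 0 lower. Rises came from all clusters with more than 1 tested gene: 19 of 25 in the HIST1 cluster (chr6:26031650-27893843), 6 of 7 in HIST2 and 2 of 2 in HIST3. Near-identical copies such as HIST2H2AA3 and HIST2H2AA4 can share reads, so their separate values are uncertain. The library selection is not stated, so which forms of the histone transcripts were captured cannot be told.

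HIST1H2AC (chr6:26124145-26139116) stood at 3.75, 4.18, 4.80 and 4.39 CPM with DMSO and at 23.9, 29.1, 37.5 and 25.5 CPM with JQ1. Its log2 fold change of 2.76 ± 0.18 was 2.81 without JQ1 replicate 1. HIST1H2BD, at chr6:26158146-26171349, stood at 3.42, 3.20, 3.46 and 4.17 CPM with DMSO and at 25.1, 16.8, 16.4 and 16.3 CPM with JQ1. It rose by 2.38 ± 0.17 (edgeR adjusted p = 9.10e-08), with replicate 1 the highest. HIST1H2BK, the most abundant H2B gene among those named here, rose from 37.6, 40.5, 42.5 and 45.1 CPM to 71.4, 82.6, 81.7 and 77.8 CPM. Its log2 fold change was 0.92 ± 0.10 (edgeR adjusted p = 8.18e-06), and the 4 values of each group lay close together. HIST2H2BE on chromosome 1 rose by 1.59 ± 0.23, to 6.63 to 7.28 CPM from 1.75 to 3.08. The windows of these 4 genes printed above all hold a TATAAA close to their downstream end and at least 3 CCAAT boxes.

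Part of the histone signal rested on JQ1 replicate 1. The linker histone HIST1H1C was at 72.2 CPM in that library and at 27.98 to 30.5 CPM in the other 3, against 15.2 to 17.7 with DMSO. It rose by 1.25 ± 0.25, and by 0.78 without replicate 1. HIST1H4C was at 14.8 CPM in replicate 1 and at 3.03 to 3.31 in the others, against 1.75 to 2.56 with DMSO, and its call was lost without that library (0.45, edgeR adjusted p = 0.239). The median of the H4 genes was 1.44 with all libraries and 0.64 without replicate 1, while that of the H2B genes was 1.453 and 1.298. Without replicate 1 the calls were 6 of 9 H2A, 9 of 13 H2B, 3 of 4 H3 and 4 of 7 H4 genes. The median log2 ratio of the 13 mitochondrial mRNAs was 2.53 in the same library and -0.27 to 0.05 in the other 3, and none of the 13 was called. Its part in the histone values was not tested. The replication-independent histone gene H3F3B, which encodes the variant H3.3 and has introns, rose from 498 to 519 CPM with DMSO to 781 to 843 CPM with JQ1 (0.66 ± 0.09).

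**Figure D2:**
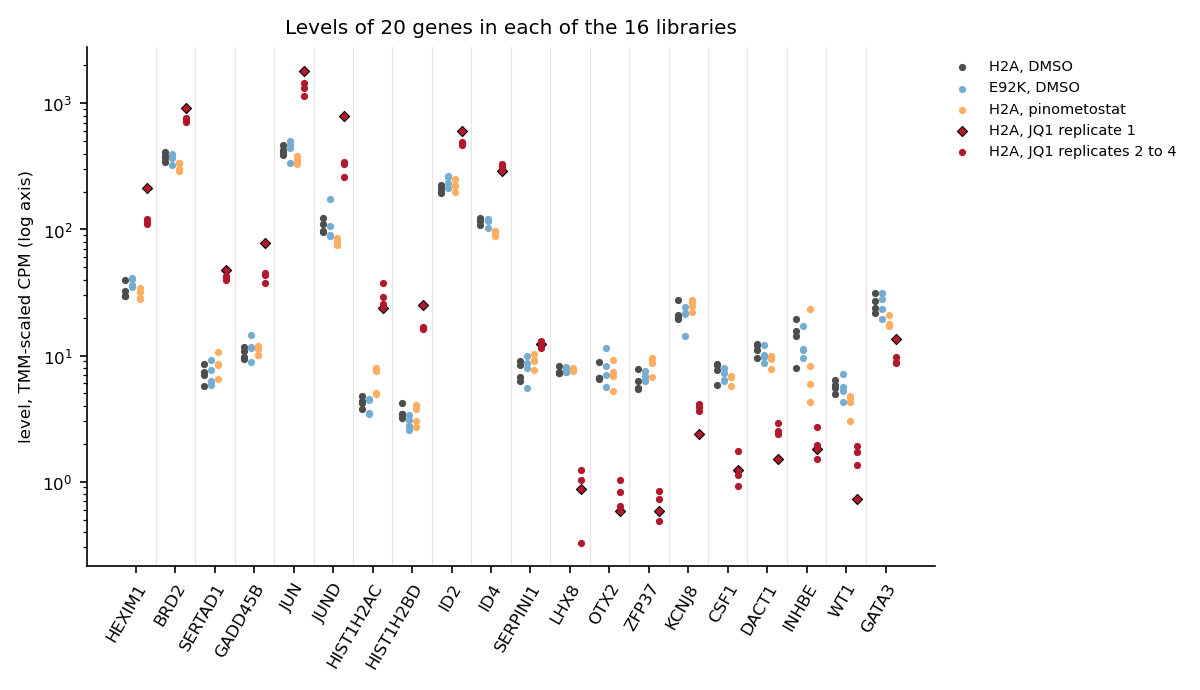
Levels of 20 genes in each of the 16 libraries, in TMM-scaled CPM on a log axis. Grey points are H2A cells with DMSO, blue points E92K cells with DMSO, orange points H2A cells with pinometostat, and red marks H2A cells with JQ1, with replicate 1 as an outlined diamond. HEXIM1 to SERPINI1 are higher and LHX8 to GATA3 lower in each JQ1 library than in each DMSO library of H2A cells.

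AP-1 is a dimer of JUN and FOS family proteins, and its members split by direction. Of 11 tested genes, 5 rose (JUN, JUND, JUNB, FOS and FOSB) and 4 fell (FOSL1, FOSL2, JDP2 and BATF2). These are 45.5% and 36.4%, against 7.16% and 10.4% of all tested genes. JUN, a single-exon gene at chr1:58780788-58784327, stood at 467, 424, 415 and 386 CPM with DMSO and at 1820, 1317, 1462 and 1154 CPM with JQ1. Its log2 fold change was 1.77 ± 0.14 (edgeR adjusted p = 2.62e-07). JUND went from 97.2, 95.2, 109.9 and 122 CPM to 799, 332, 343 and 262 CPM, with replicate 1 far above the rest. Its change was 2.03 ± 0.28, and 1.53 ± 0.17 without replicate 1. FOS rose by 1.82 ± 0.23 from a low level, 2.67 to 3.94 CPM, to 8.16 to 15.2 CPM.

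The FOS-related genes FOSL1 and FOSL2 did the reverse. FOSL1 stood at 2.06, 2.63, 1.71 and 1.69 CPM with DMSO and at 0.798, 0.635, 0.362 and 0.513 CPM with JQ1 (-1.83 ± 0.25, edgeR adjusted p = 5.93e-05). JDP2, which represses AP-1, fell from 22.1, 20.9, 18.2 and 27.6 CPM to 4.79, 6.49, 4.76 and 7.60 CPM (-1.90 ± 0.27, edgeR adjusted p = 7.41e-05). Neither group overlapped the other for any of the 9 called AP-1 genes. ATF3 (0.22 ± 0.22) and BATF3 (-0.49 ± 0.20) did not pass the test.

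The ID proteins lack a DNA-binding region and hold basic helix-loop-helix (bHLH) factors inactive. All 4 rose. ID4 stood at 108, 117, 118 and 124.03 CPM with DMSO and at 292, 318, 312 and 330.3 CPM with JQ1, a tight pair of groups with a log2 fold change of 1.42 ± 0.09 (edgeR adjusted p = 2.85e-08). ID2 rose by 1.3003 ± 0.11 and ID1 by 1.095 ± 0.13. ID3 rose by 0.47 ± 0.12, from 101 to 129.6 CPM with DMSO to 146 to 177 with JQ1. Over the whole bHLH and ID list of 38 tested genes, 8 rose (21.1%, against 7.16% of all tested genes) and 13 fell (34.2%, against 10.4%). Besides the ID genes, the rises were HES4, HES5, HEY1 and HAND1, of which HES4 lost its call without JQ1 replicate 1 (0.32, edgeR adjusted p = 0.151). The falls included the haematopoietic factor TAL1 (-2.57 ± 0.32), the clock repressor BHLHE41 (-1.81 ± 0.19), the mesoderm factor MESP1 (-1.36 ± 0.18) and OLIG2 (-1.29 ± 0.18).

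HES5 and HEY1 are also targets of Notch, a receptor whose cleaved intracellular part acts in the nucleus. HES5 rose from 7.93 to 9.31 CPM to 15.997 to 26.5 CPM (1.22 ± 0.18). NRARP, a feedback inhibitor of Notch, rose from 34.3, 31.6, 32.5 and 28.9 CPM to 57.4, 71.1, 69.6 and 68.2 CPM (1.07 ± 0.14, edgeR adjusted p = 4.11e-05). LFNG, a sugar transferase that modifies Notch, rose by 1.38 ± 0.26. The ligand DLL1 fell from 13.7 to 17.6 CPM to 5.66 to 10.2 CPM (-1.06 ± 0.16), and DLL4 fell by 1.14 on the log2 scale. In all, 5 of 30 Notch pathway genes rose (16.7%, against 7.16% of all tested genes) and 3 fell (10%, near the 10.4% of all), with a median of -0.02, and library size alone gave 3 rises and 6 falls.

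Members of small regulator families also diverged. SERTAD1, which binds CDK4, stood at 5.78, 7.01, 7.36 and 8.49 CPM with DMSO and at 47.5, 41.8, 42.3 and 40.01 CPM with JQ1 (2.58 ± 0.17, edgeR adjusted p = 2.85e-08). Its relative SERTAD4 went from 13.3, 12.2, 14.8 and 16.1 CPM to 7.03, 4.79, 4.76 and 5.04 CPM (-1.39 ± 0.15, edgeR adjusted p = 5.15e-06). GADD45B, a stress-induced gene, rose from 9.31 to 11.7 CPM to 37.9 to 78.2 CPM, with replicate 1 highest, by 2.29 ± 0.20. GADD45A was called higher (0.63 ± 0.19) but not without JQ1 replicate 1 (0.37, edgeR adjusted p = 0.103).

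The cyclin-dependent kinase inhibitors were split in the same way. CDKN2D (p19INK4d) stood at 5.67, 8.25, 6.47 and 6.95 CPM with DMSO and at 16.8, 18.8, 18.9 and 19.6 CPM with JQ1, a rise of 1.44 ± 0.15 (edgeR adjusted p = 3.13e-06). CDKN2B (p15INK4b) rose by 0.88 ± 0.13. CDKN1B (p27KIP1) fell from 60.6 to 65.0 CPM to 32.1 to 47.2 CPM (-0.56 ± 0.11), CDKN2C by 0.36 on the log2 scale, and cyclin D1 (CCND1) by 0.58. Over the 22 genes of the list with SERTAD, GADD45, cyclins and these inhibitors, 7 rose (31.8%, against 7.16% of all tested genes). In it 4 fell (18.2%, against 10.4%).

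Among BCL2 family genes, which govern mitochondrial cell death, 1 of 15 rose (6.67%, near the 7.16% of all tested genes). In the same list 5 fell (33.3%, against 10.4%). The pro-death member PMAIP1 (NOXA) stood at 161, 171, 181 and 194 CPM with DMSO and at 296, 315, 314 and 322 CPM with JQ1 (0.82 ± 0.11, edgeR adjusted p = 5.97e-05). The falls held both kinds: the pro-death genes HRK (-1.38 ± 0.21) and BMF (-1.05 ± 0.12), and the survival genes BCL2L1 (-0.75 ± 0.12), BCL2 (-0.71 ± 0.19) and BCL2L2 (-0.49 ± 0.13).

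**Figure D3:**
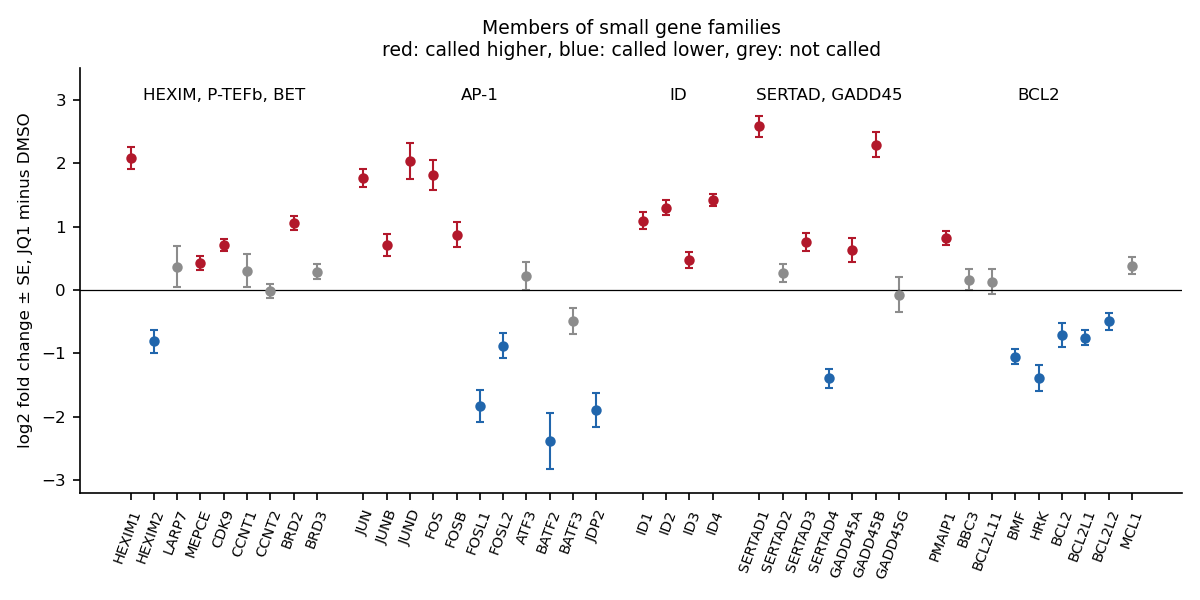
Log2 fold change of JQ1 minus DMSO for members of 5 small families, with error bars of 1 SE. Red points were called higher, blue points lower and grey points were not called. HEXIM1 and HEXIM2, JUN and JDP2, and SERTAD1 and SERTAD4 lie on opposite sides of 0, while the 4 ID genes lie above it.

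Genes for developmental transcription factors fell in large numbers. Of 91 tested homeobox genes outside the HOX clusters and the TALE class, 55 fell and 2 rose, against 10.4% falling among all tested genes, and the median log2 fold change was -0.72. The median was close in all 4 JQ1 libraries, from -0.77 to -0.61. In bulk RNA, fewer cells of a type and less RNA per cell cannot be told apart.

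LHX8 (chr1:75128434-75161533), a LIM-homeodomain gene, stood at 7.32, 7.41, 7.28 and 8.30 CPM with DMSO and at 0.870, 1.03, 1.24 and 0.326 CPM with JQ1 (-3.13 ± 0.22, edgeR adjusted p = 6.50e-08). OTX2, a forebrain factor, stood at 6.65, 6.54, 6.63 and 8.94 CPM with DMSO and at 0.580, 0.635, 0.828 and 1.03 CPM with JQ1. DLX1 (-1.41 ± 0.11) and the intestinal factor CDX2 (-1.35 ± 0.10) fell from higher levels, CDX2 from 30.8 to 37.4 CPM down to 12.1 to 14.5 CPM. The exceptions, chosen for naming because there were 2, were MSX1 and POU3F1. MSX1 stood at 99.9 CPM in JQ1 replicate 1 and at 41.1 to 48.5 CPM in the other 3, against 33.8 to 35.7 with DMSO.

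The SOX, FOX, T-box and GATA list showed the same direction. Of 64 tested genes, 27 were lower (42.2%, against 10.4% of all tested genes) and 4 higher (6.25%, near the 7.16% of all). GATA6, an endoderm factor, stood at 32.2, 33.6, 33.99 and 34.1 CPM with DMSO and at 12.4, 10.8, 13.7 and 13.3 CPM with JQ1 (-1.41 ± 0.11, edgeR adjusted p = 2.12e-07). FOXD3 (-1.71 ± 0.15), SOX21 (-1.55 ± 0.12) and FOXD2 (-1.42 ± 0.12) fell as well. SOX4 was the abundant exception, at 147 to 216 CPM with DMSO and at 722, 350.2, 370.2 and 328 CPM with JQ1. It rose by 1.299 ± 0.22, and by 0.93 without JQ1 replicate 1. The rises of SOX6 and SOX30 were not called without that library.

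C2H2 zinc finger genes, the largest transcription factor family in the genome, fell in 144 of 477 cases (30.2%, against 10.4% of all tested genes). They rose in 23 (4.82%, against 7.16%), and their median was -0.22. ZNF689 (chr16:30602558-30624012) stood at 50.01, 40.5, 40.1 and 37.0 CPM with DMSO and at 8.48, 11.6, 10.7 and 11.3 CPM with JQ1 (-1.99 ± 0.12, edgeR adjusted p = 2.85e-08). ZFP37 went from 5.52, 5.42, 6.30 and 7.77 CPM to 0.580, 0.488, 0.725 and 0.839 CPM, and ZNF747 from 17.2 to 4.68 CPM (-1.89 ± 0.16). Rises were smaller in number, with ZNF837 (1.26 ± 0.15), ZNF280C (1.17 ± 0.16) and ZNF324 (1.06 ± 0.16) the 3 with the smallest adjusted p. In the Krüppel-like and SP factors, 4 of 23 rose (17.4%), among them KLF5 (0.64 ± 0.10). The rises of KLF6 and KLF16 were not called without JQ1 replicate 1. In that list 6 fell (26.1%), among them SP8 (-1.48 ± 0.20), SP9 (-1.51 ± 0.26) and KLF3 (-0.86 ± 0.16).

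Several of these factors mark the kidney lineage from which the line comes. Of 12 tested embryonic kidney and HEK293 genes, 8 fell (66.7%, against 10.4% of all tested genes) and 1 rose (8.33%, near the 7.16% of all). The nephron progenitor factor WT1 stood at 4.96, 5.52, 6.38 and 5.86 CPM with DMSO and at 0.725, 1.90, 1.71 and 1.35 CPM with JQ1 (-1.96 ± 0.23, edgeR adjusted p = 1.50e-05). SIX2 fell from 31.6 to 37.5 CPM to 15.6 to 24.3 CPM (-0.85 ± 0.13), GATA3 by 1.35, EYA1 by 0.89 and SALL1 by 0.76 on the log2 scale. LHX1 and PAX2 were among the other falls, and without JQ1 replicate 1 the list had 7 falls and 0 rises. Its falls numbered 5 when DMSO replicate 1, 2 or 3 or JQ1 replicate 3 or 4 was left out. The neurofilament gene NEFM was called higher, but stood at 603 CPM in JQ1 replicate 1 and at 230.3 to 242 in the other 3, against 126 to 214 with DMSO, and its call was lost without that library (0.51, edgeR adjusted p = 0.0586). None of the tested nephron (3), blood (1) and fibroblast (6) markers was called.

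**Figure D4:**
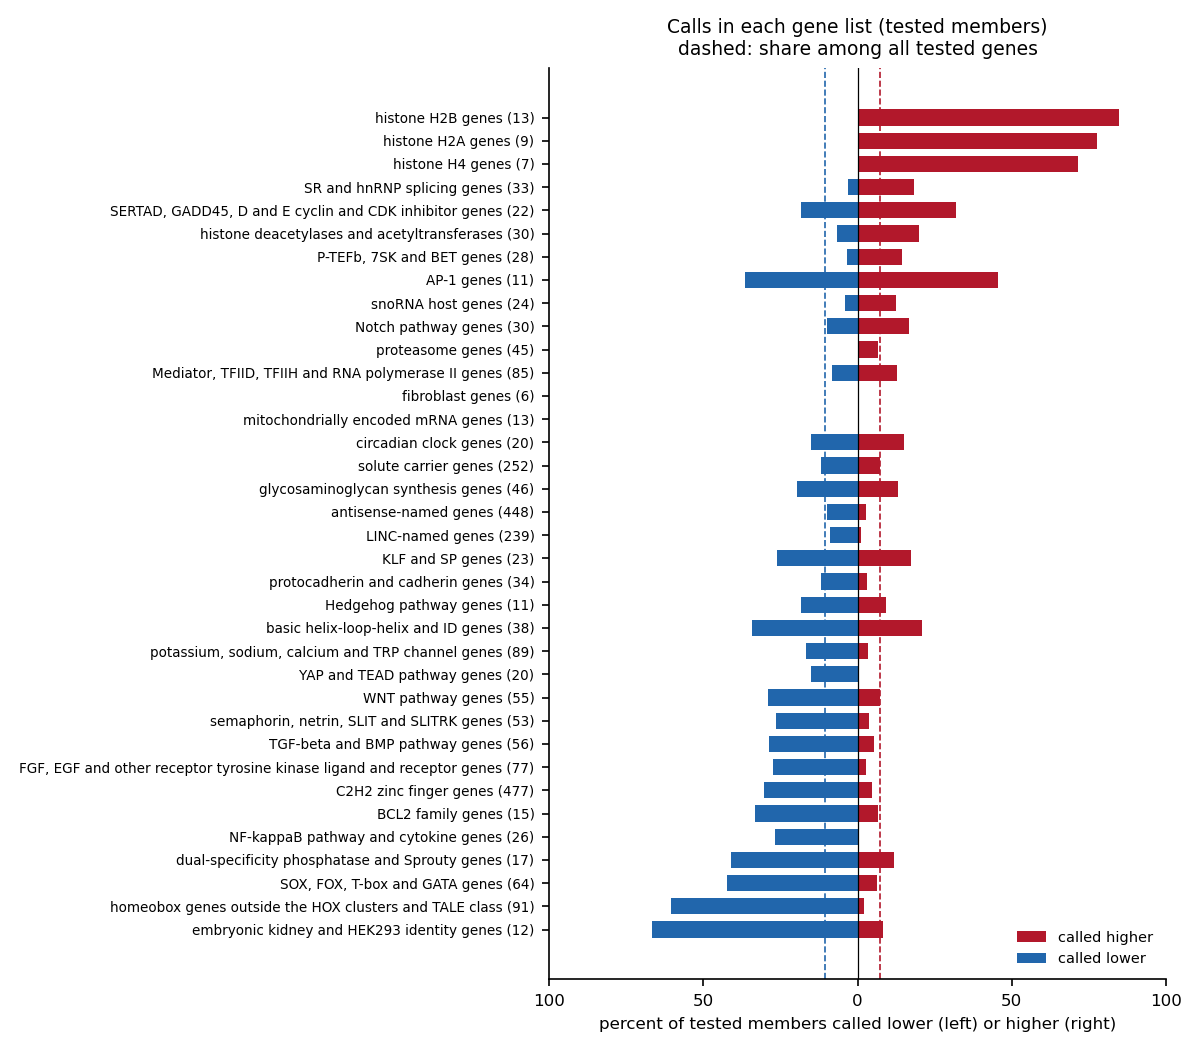
For each gene list with at least 5 tested members (number in brackets), the share of tested members called higher (red, to the right) and lower (blue, to the left), in percent. Dashed lines mark the shares among all tested genes, 7.16% higher and 10.4% lower. The 3 histone lists lie at the top with no member lower, and the homeobox and kidney lists lie at the bottom.

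The other signalling lists are read against the 10.4% of all tested genes that fell and the 7.16% that rose. In the WNT list, 16 of 55 fell (29.1%) and 4 rose (7.27%). RNF43, a ligase that removes Frizzled receptors and is itself a WNT target, stood at 8.03, 9.26, 8.58 and 7.32 CPM with DMSO and at 2.47, 1.86, 2.38 and 1.86 CPM with JQ1 (-1.96 ± 0.16, edgeR adjusted p = 2.53e-07). DACT1, an inhibitor of Dishevelled, fell by 2.25 on the log2 scale, the ligand WNT5A by 1.16 and the receptor FZD2 by 1.03. The receptor FZD9 rose by 0.87 ± 0.16.

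In the TGF-beta and BMP list, 16 of 56 fell and 3 rose. SMAD1, the transducer of BMP signals, went from 15.5, 16.2, 15.7 and 18.6 CPM to 5.58, 6.88, 6.78 and 7.93 CPM (-1.27 ± 0.15, edgeR adjusted p = 1.75e-05). The activin subunit genes INHBB (-2.30 ± 0.25) and INHBE (-2.83 ± 0.45) fell. BMP4 fell by 0.90 on the log2 scale while BMP2 rose by 0.50.

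Ligands and receptors of receptor tyrosine kinases showed 21 falls and 2 rises among 77 tested. CSF1, the macrophage growth factor, stood at 7.70, 8.42, 8.50 and 5.82 CPM with DMSO and at 1.23, 0.928, 1.76 and 1.12 CPM with JQ1. The ephrin receptor EPHA2 fell by 1.57 and FGF2 by 0.99 on the log2 scale. Feedback inhibitors of the same pathway, the dual-specificity phosphatases and Sprouty genes, fell in 7 of 17 cases and rose in 2. DUSP2 went from 3.49, 2.83, 3.21 and 3.49 CPM to 1.16, 0.586, 0.569 and 0.700 CPM (-2.14 ± 0.23, edgeR adjusted p = 4.47e-06), and SPRY1 and SPRY2 fell by 1.32 and 1.16. DUSP14 rose by 0.69 ± 0.14.

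In the NF-kappaB list, 7 of 26 fell and 0 rose, with TNFAIP3, an inhibitor of the pathway, down from 4.36 to 5.90 CPM to 1.66 to 1.96 CPM (-1.60 ± 0.20, edgeR adjusted p = 2.47e-05). The pathway's own subunit NFKB1 fell by 0.71 and its inhibitor NFKBIA by 0.55. Of 20 YAP and TEAD genes, 3 fell and 0 rose, a share of 15% that is near the 10.4% of all genes: AMOTL2 (-1.61 ± 0.16), AJUBA (-1.05 ± 0.21) and LATS2 (-0.70 ± 0.15). The Hedgehog effector GLI1 fell by 0.80, and 2 of 11 genes of that list fell and 1 rose.

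Among channel genes, 15 of 89 fell (16.9%, against 10.4% of all tested genes) and 3 rose (3.37%, against 7.16%). The potassium channel gene KCNJ8 stood at 20.5, 19.5, 21.1 and 27.4 CPM with DMSO and at 2.39, 3.91, 4.14 and 3.64 CPM with JQ1. KCNK1 fell by 1.43, KCNJ12 by 1.76 and TRPM6 by 1.72 on the log2 scale. Semaphorin, netrin, SLIT and SLITRK genes, which guide axons, fell in 14 of 53 cases (9 without DMSO replicate 4) and rose in 2, with SLITRK3 at -2.08 ± 0.16. Glycosaminoglycan synthesis genes went both ways, with 6 of 46 higher and 9 lower. The falls numbered 4 without DMSO replicate 2 and 5 without DMSO replicate 1 or 3 or JQ1 replicate 4. The chondroitin sulfotransferase CHST3 fell from 16.9 to 3.73 CPM (-2.17 ± 0.17), whereas CHST12 rose from 36.4 to 59.6 CPM (0.71 ± 0.14). Solute carriers rose in 18 and fell in 30 of 252 cases (11.9%), shares close to those of all tested genes, and protocadherin and cadherin genes rose in 1 and fell in 4 of 34.

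Chromatin and RNA-handling genes rose more often than they fell on the TMM scale, but not with library size alone. Of 30 histone deacetylases and acetyltransferases, 6 rose (20%, against 7.16% of all tested genes) and 2 fell (6.67%, against 10.4%). The deacetylase SIRT1 stood at 36.2, 36.5, 37.9 and 46.8 CPM with DMSO and at 59.2, 56.7, 67.7 and 80.1 CPM with JQ1 (0.75 ± 0.12, edgeR adjusted p = 0.000225), and SIRT7 rose by 0.92 ± 0.15. With library size alone in place of TMM, 2 of this list rose and 5 fell, so its direction depends on the scaling, and 3 rose without DMSO replicate 3 or 4. Of 33 SR and hnRNP splicing genes, 6 rose (18.2%), with SRSF5 from 181 to 212 CPM up to 279 to 354 CPM (0.65 ± 0.09). In that list 1 fell (3.03%), SRSF12 (-0.78 ± 0.11). Library size alone gave 2 rises and 3 falls in that list, and leaving out DMSO replicate 2 or 3 gave 3 rises. Leaving out JQ1 replicate 1 gave 4 rises and 2 falls. Proteasome genes rose in 3 of 45 cases, near the share of all tested genes, and in 0 with library size alone, when 1 fell. Of those 3, PSMB10 and PSMD1 lost the call without JQ1 replicate 1.

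Of 20 clock genes tested, 3 rose and 3 fell, 15% each, against 7.16% and 10.4% of all tested genes. The median log2 fold change of the list was -0.007, so the list had no common direction. PER1 (1.03 ± 0.14), DBP (0.80 ± 0.14) and CRY2 (0.81 ± 0.16) rose, while BHLHE41, CIART and CLOCK fell. CLOCK lost its call in 13 of the 18 alternative settings described below. These included each fit that left out 1 library, such as that without JQ1 replicate 1 (-0.41, edgeR adjusted p = 0.0553). PER1 stood at 44.5, 35.7, 31.5 and 28.9 CPM with DMSO and at 87.5, 68.7, 69.1 and 62.5 CPM with JQ1, with no overlap.

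Among non-coding genes, SNHG12, the host of several snoRNAs, rose from 7.51, 7.65, 7.56 and 6.95 CPM to 36.0, 19.7, 20.9 and 16.6 CPM (1.64 ± 0.18, edgeR adjusted p = 6.28e-06). Of 24 snoRNA host genes, 3 rose (12.5%, against 7.16% of all tested genes) and 1 fell (4.17%, against 10.4%). In the same list 1 rose and 2 fell without JQ1 replicate 1, and 3 rose and 3 fell with library size alone. Genes named as antisense fell in 45 and rose in 12 of 448 cases, and LINC-named genes fell in 21 and rose in 3 of 239. Both shares of falls were near the 10.4% of all genes. The rises of LINC00342 and LINC00893 were not called without JQ1 replicate 1. The strand setting of the counting is not given in the sources used here, so reads of an antisense gene and its partner cannot be told apart.

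**Figure D5:**
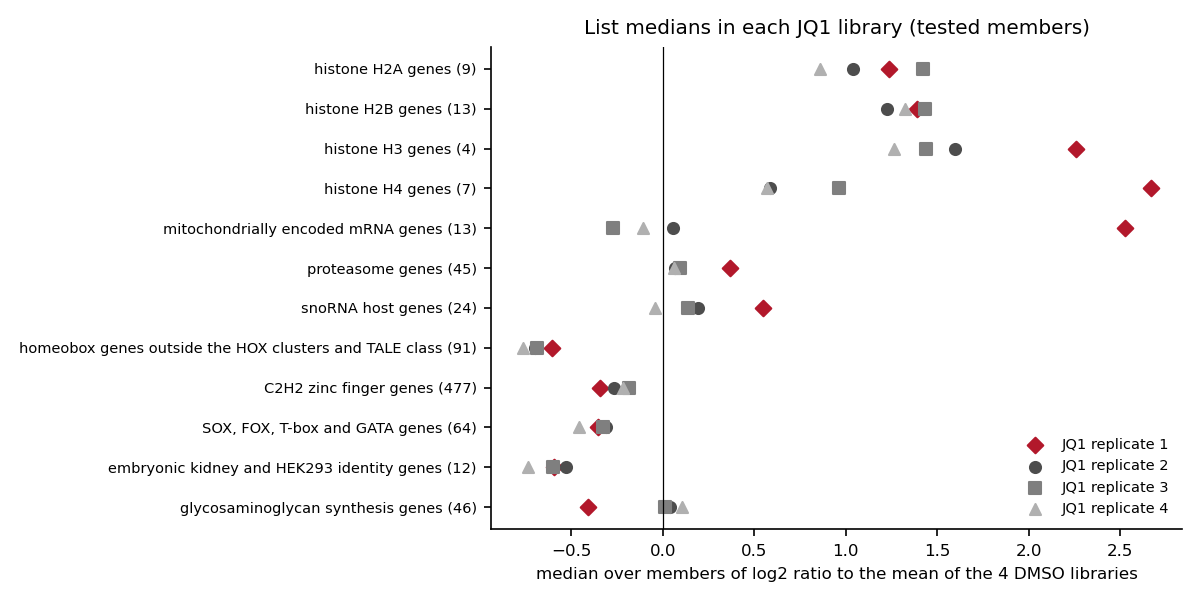
Median over the tested members of each list (number in brackets) of the log2 ratio of a JQ1 library to the mean of the 4 DMSO libraries. Red diamonds are JQ1 replicate 1 and grey marks replicates 2 to 4. The 13 mitochondrial mRNAs lie at 2.53 in replicate 1 and at -0.27 to 0.05 in the others, and the 7 H4 genes at 2.67 against 0.57 to 0.96, while the homeobox medians lie between -0.77 and -0.61 in all 4.

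By absolute change in CPM the list of genes is a different one. The 10 largest rises were JUND, HSPA1B, JUN, ACTG1, YBX1, HNRNPC, BRD2, ID2, ATF4 and H3F3B. HSPA1B, a heat shock protein gene with a near-identical copy that makes its value uncertain, stood at 253, 164, 228 and 129.9 CPM with DMSO and at 682, 698, 638 and 711 CPM with JQ1. Not all of these rest on the 4 libraries alike. YBX1, an RNA-binding protein gene, stood at 2633 CPM in JQ1 replicate 1 and at 1591 to 1679 in the other 3, against 1286 to 1474 with DMSO. Without replicate 1, YBX1 (0.23, edgeR adjusted p = 0.163), HNRNPC (0.23, edgeR adjusted p = 0.114) and ATF4 (0.22, edgeR adjusted p = 0.0933) were no longer called. Over the 18 alternative settings, YBX1 lost its call in 13, HNRNPC in 12, ACTG1 in 11 and ATF4 in 10.

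The 10 largest falls by CPM were STC2, SLC38A2, CDC42EP1, XBP1, XPO1, GJA1, MARCKS, UBL4A, SLC7A1 and ADNP. Of these, XPO1 lost its call in 7 of the 18 alternative settings, SLC7A1 in 3 and STC2 in 1. CDC42EP1, an effector of the small GTPase CDC42, stood at 177.5, 171, 152 and 166 CPM with DMSO and at 53.0, 74.5, 65.2 and 59.2 CPM with JQ1 (-1.40 ± 0.13, edgeR adjusted p = 1.04e-06). XBP1, a factor of the unfolded protein response, went from 220.3, 235.8, 216 and 246 CPM to 105, 156.6, 141 and 170.4 CPM (-0.68 ± 0.17, edgeR adjusted p = 0.0111). The gap junction gene GJA1 fell from 121 to 142 CPM to 41.9 to 90.2 CPM (-0.80 ± 0.22). The amino acid transporter genes SLC38A2 (-0.83 ± 0.20) and SLC7A1 (-0.58 ± 0.16) fell too. SERPINI1, the serine protease inhibitor neuroserpin and a marker named for BET inhibition, rose from 6.31, 8.35, 9.11 and 6.80 CPM to 12.4, 12.7, 12.9 and 11.5 CPM, a smaller change of 0.70 ± 0.16 (edgeR adjusted p = 0.00627).

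Calls varied with gene structure and level. Genes spanning 2 to 10 kb fell in 14.4% of cases, against 10.4% of all tested genes. Those under 2 kb fell in 6.13% and those of at least 200 kb in 3.81%. The shares that rose, at 2 to 10 kb and at 200 kb or more, had no fixed order. They were 8.54% and 5.63% with all libraries and 5.96% and 6.74% without JQ1 replicate 1. With library size alone they were 3.82% and 0.714%, and in the 7 libraries alone without that replicate 9.50% and 14.7%. Genes with 1 exon block fell in 11.3%, those with 2 to 5 in 15.8% and those with 16 or more in 5.32%. By level with DMSO, 5.36% of genes under 1 TPM fell, 13.98% of those at 1 to 10 TPM and 1.89% of those at 100 TPM or more. Counts, and with them the power to call a change, differ between these classes. Chromosome 16 is given because its share of rises was the largest of the chromosomes. On it 12.02% of genes rose, against 7.16% of all tested genes, and 6.63% fell, against 10.4%. Chromosomes 8 (10.5%) and 19 (10.2%) had the next largest shares of rises. Shares by chromosome were not computed for other scalings or without JQ1 replicate 1.

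The same genes were compared between JQ1 and the other groups, which differ from it in compound, time or H2A vector, so that none of these can be told apart. Between JQ1 and pinometostat, 34.2% of tested genes differed, and between JQ1 and E92K cells with DMSO, 22.9%. These contrasts share the 4 JQ1 libraries by which the genes were chosen, so calls in the same direction are no independent support. Among the 12 largest rises by fold, SMG1P7, a pseudogene with near-identical copies, was not called between JQ1 and pinometostat (0.82, edgeR adjusted p = 0.119). Of the 10 falls by CPM, 3 were not called between JQ1 and pinometostat: XBP1 (-0.37, edgeR adjusted p = 0.113), MARCKS (0.15, edgeR adjusted p = 0.287) and SLC7A1 (-0.27, edgeR adjusted p = 0.200). Between JQ1 and E92K cells, SLC7A1 (-0.41, edgeR adjusted p = 0.0729) and, among the rises by CPM, YBX1 (0.27, edgeR adjusted p = 0.225) and HNRNPC (0.26, edgeR adjusted p = 0.173) were not called. In the contrast of pinometostat with DMSO, which shares the 4 control libraries, MARCKS was called lower as well (-0.59, edgeR adjusted p = 0.00548), as was CDC42EP1 (-0.56, edgeR adjusted p = 0.0152).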

How the data were processed

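RNA-seq of 16 libraries was used, 4 in each of 4 groups, from total RNA; RNA extraction and library preparation were done by a service provider, per the labels. For 57500 genes the authors deposited a table of whole-number counts, and one of TPM values (transcripts scaled for gene length and library size). For the aligner, counter, library selection and strand setting nothing is stated in the labels or headers. Gene IDs were matched to GENCODE 29 on GRCh38: 56898 were shared, 54773 of them with the same start and end. The pinometostat dose is 2.5 µM in one label field, and a treatment text gives the same figure in mM.

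Counts were tested with edgeR 4.0.16 (R 4.3.3): filterByExpr (minimum count 10, minimum total 15), TMM scaling, and glmQLFit and glmQLFTest with 1 mean per group over all 16 libraries (12 residual degrees of freedom), two-sided, Benjamini-Hochberg over 17306 genes, threshold 0.05. Fold changes are on the log2 scale and SE is the fold change over the square root of F. CPM is scaled by TMM. The script was tested on simulated data. Totals of 17779692 to 27599686 counts limit precision for low genes, and intervals of counting error were not used in the comparisons. No 2 replicates agreed within counting noise (smallest chi-square per degree of freedom 3.77).

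Named genes were HEXIM1, SERPINI1 and HIST1H2AC, the 12 largest rises and 12 largest falls by fold and the 10 of each by CPM (called, at least 5 CPM, groups without overlap), and up to 4 called members of each of 40 gene lists in each direction with the smallest adjusted p. Further list members are named as examples of a count. The members and lists were chosen with earlier results of these data known. Alternatives were DESeq2 1.42.0, other scalings and filters, the 8 libraries alone, a replicate block, leaving out each library, and 2 chosen after seeing the data (nuclear library size, and 7 libraries without JQ1 replicate 1). Promoter letters were searched in RefSeq sequence of GRCh38.p14. Some genes are not reported here.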

Additional observations from a re-analysis of the deposited data

Results flagged for a closer look

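Within a group of 4 libraries, a library whose gap to its nearest neighbour exceeded Dixon's 95% critical value was marked. Chance marks about 1 in 20 groups. There were 496 groups of 4, from the JQ1 and the DMSO libraries. They covered the genes chosen by the naming rule and some others, LARP7 and HIST1H4C among them. JQ1 replicate 1 was marked 36 times and replicates 3 and 4 of JQ1 2 and 3 times. DMSO replicates 1 to 4 were marked 5, 1, 1 and 8 times.

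JQ1 replicate 1 stood apart in its mitochondrial share, 16.5% of counts. It lay far above the other JQ1 libraries for HEXIM1 (213 CPM), JUND (799 CPM), GADD45B (78.2 CPM), SOX4 (722 CPM), NEFM (603 CPM), MSX1 (99.9 CPM), DUSP14 (72.9 CPM), FGF2 (5.80 CPM), SERTAD4 (7.03 CPM), STC2 (154 CPM) and SMG1P7 (21.97 CPM). The same held for the histone genes HIST1H2BD (25.1 CPM), HIST1H1C (72.2 CPM) and HIST1H4C (14.8 CPM), for the RNA-binding protein genes YBX1 (2633 CPM), HNRNPC (2455 CPM) and LARP7 (186 CPM), and for ATF4 (1667 CPM). It lay far below them for GJA1 (41.9 CPM), CDKN1B (32.1 CPM), CDKN2C (71.0 CPM), BCL2L1 (10.6 CPM), HEY1 (187 CPM) and HIST2H2AA3 (3.12 CPM). Their relation to the mitochondrial share was not tested.

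JQ1 replicate 4 was marked for ZNF837 (9.75 CPM) and TNFAIP3 (1.96 CPM). DMSO replicate 4 was the highest DMSO library for LHX8 (8.30 CPM), OTX2 (8.94 CPM), SIRT1 (46.8 CPM), CIART (1.31 CPM) and XPO1 (336 CPM), and the lowest for GLI1 (4.36 CPM). DMSO replicate 1 was the lowest for H3F3B (498 CPM) and DMSO replicate 2 for ACTG1 (2344 CPM).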

How the results depend on the processing

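Of 231 genes chosen by the naming rule, 160 were called under every one of 18 alternatives that tested them, 71 lost the call in at least 1, and 0 changed direction. The 8 libraries alone gave 1872 changed genes, 505 of them higher. Library size alone gave 433 genes higher and nuclear library size 535. Deviations of JQ1 and DMSO libraries with the same replicate number had correlations of -0.119, 0.256, -0.0876 and 0.0513 over 11455 genes. Different numbers gave -0.288 to 0.173, so the value for replicate 2 was the highest of all pairs. No label says that the numbers pair, and they are not taken as pairs. A replicate block gave 1282 changed genes, 339 higher and 943 lower, in the 8 libraries, and 2363 changed in all 16. Leaving out 1 library gave 2216 to 3207 changed genes, 734 to 1456 higher and 1461 to 2099 lower. DESeq2 gave 3675 changed genes. List counts moved by over 1.5 times in 262 of 1440 comparisons and list medians beyond the spread between libraries in 75 of 720. The shares by gene structure and level moved beyond their 95% Wilson interval in 347 of 468. The 7 libraries without JQ1 replicate 1 gave 4205 changed genes, 1812 higher and 2393 lower. The causes were not tested. Genes of a few CPM rest on few counts.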

Other observations

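Small nucleolar RNA genes, noticed after their values were seen, were not among the lists. Of 22 tested, 9 were called higher (40.9%, against 7.16% of all tested genes) and 0 lower, with a median log2 fold change of 1.29. These counts follow in part from the filter, which some passed only through other groups than DMSO. SNORD100 and SNORA66, both called, stood below its 0.442 CPM in every DMSO library, at most at 0.366 and 0.338 CPM. In the 8 libraries alone 17 were tested and 7 called higher. With at least 50 counts in 4 libraries, 1 was tested. The summed level of the 22 was 10.2 to 12.5 CPM with DMSO and 53.3, 26.7, 22.98 and 17.6 CPM in JQ1 replicates 1 to 4. Replicate 1 was the highest, and without it 6 were called higher, with a median of 0.86. The summed level was 14.5 to 20.7 CPM in E92K cells and 17.3 to 23.4 CPM with pinometostat, so that JQ1 replicates 3 and 4 lay within the pinometostat range and replicate 4 within that of E92K cells as well.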
